A study of Mus musculus with 17 samples.

Results

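Oxidative phosphorylation is described here in kidney macrophages of lupus-prone mice, through 81 genes of the respiratory chain and the ATP synthase among the 15780 genes measured. The 81 were taken from the array's annotation by symbol: every gene starting with Nduf, Uqcr or Atp5, or with Cox and a number from 4 to 8, plus Sdha to Sdhd and Cycs. They comprise 32 subunits of complex I and 8 of its assembly factors (Ndufaf1 to Ndufaf8), 4 subunits of complex II, 6 of complex III, 10 of complex IV and 12 of complex V. Cytochrome c (Cycs) and 8 isoforms with restricted tissue expression complete the set. Macrophages with high surface F4/80 had been sorted from kidneys of NZB/W mice, which develop lupus nephritis spontaneously, and their RNA was profiled on 17 Affymetrix arrays.

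Prenephritic samples (n = 6) came from mice 8 to 16 weeks old. Nephritic samples (n = 7) were taken 2 to 6 weeks after proteinuria began, before terminal renal failure. Remission samples (n = 4) were taken 3 to 4 weeks after complete remission, in mice given 1 dose of cyclophosphamide, 6 doses of CTLA4Ig and an antibody to CD154. Every remission sample came from a drug-treated mouse, and the ages of nephritic and remission mice are not in the labels, so remission, drugs and age cannot be told apart. The labels do not say whether each sample is its own animal, and the p-values speak for the spread among these samples alone.

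Oxidative phosphorylation passes electrons from NADH (complex I) and succinate (complex II) through complex III and cytochrome c to oxygen at complex IV. The protons pumped on the way drive ATP synthesis at complex V. In macrophages the balance between this pathway and glycolysis is known to shift with activation, and kidney tubule cells, the neighbours of these macrophages, are rich in mitochondria.

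The sorted cells carried macrophage RNA. The mean log2 level of 13 macrophage markers lay between 12.40 and 12.82 on all arrays. Single markers differed: 2 of 13 were higher in nephritic than in prenephritic arrays (differences from -0.16 to 1.22). In remission minus nephritic 2 of 13 were lower (differences from -1.26 to 0.10). Of all genes, 12.1% and 13.3% were called in these comparisons (limma, adjusted p under 0.05). Tubule RNA was measured as well. The mean of 24 proximal tubule markers ran from 8.80 to 10.64 in prenephritic, from 7.48 to 10.54 in nephritic and from 9.62 to 11.08 in remission arrays, and that of 22 distal tubule markers from 7.69 to 9.39, from 6.91 to 9.36 and from 8.74 to 10.24. Of these 46 markers only Slc7a13 had a mean below 5.02, the lower quartile over the table. A tubule score, the mean of the 46 markers after each was centred over the 17 arrays, was -0.14 ± 0.60 (SD, n = 6) before nephritis, -0.31 ± 0.87 (SD, n = 7) during it and 0.75 ± 0.63 (SD, n = 4) in remission. Remission exceeded nephritic arrays by 1.06 (exact two-sided permutation p = 0.064, adjusted over 3 comparisons 0.11). It exceeded prenephritic arrays by 0.88 (exact permutation p = 0.071, adjusted 0.11), and nephritic minus prenephritic was -0.17 (exact permutation p = 0.72, adjusted 0.72). In sorted bulk samples such as these, fewer cells of a type and less RNA per cell cannot be told apart. The distance between 3′ and 5′ control probe signals, a measure of RNA integrity, was 1.11 ± 0.16, 1.01 ± 0.07 and 1.02 ± 0.11 (SD, n = 6, 7 and 4) for Gapdh in the same group order.

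In nephritis few oxidative phosphorylation genes differed from prenephritic levels, and by little. Nephritic minus prenephritic differences had a median of 0.06 on the log2 scale over the 81 genes, against -0.02 over all genes, and 58 of the 81 lay above 0. In the limma fit 1 gene was higher and 0 were lower (adjusted p under 0.05), where 12.1% of all genes were called in either direction; at an unadjusted p under 0.05 the count was 7 of 81, against 25.3% of all genes. The groups overlapped for all 81 genes, while 4.68% of all genes had groups that did not. The 95% confidence interval lay within ±0.5 for 70 of the 81 genes and within ±1 for all 81.

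The gene that rose in nephritis was Cox6a2, the heart and muscle isoform of complex IV subunit 6A. Its log2 values ran from 6.92 to 7.18 (median 7.05) in prenephritic arrays and from 7.06 to 7.62 (median 7.42) in nephritic arrays, and were 6.84, 7.10, 7.10 and 7.12 in remission. Of the 7 nephritic arrays, replicates 5 and 7 (7.07 and 7.06) lay inside the prenephritic range, and the others lay above it. The difference was 0.32 ± 0.10 (SE), or 1.25-fold (adjusted p = 0.037). Remission was lower than nephritis by the same amount, -0.32 ± 0.11, without passing the threshold (adjusted p = 0.058), and remission minus prenephritic was 0.00 ± 0.11. The nephritic call held in 11 of 27 alternative settings, with adjusted p between 0.0097 and 0.15, and it was lost without any 1 of prenephritic replicates 1, 2, 3 and 5 or of nephritic replicates 1, 2, 3, 4 and 6. Some markers of other cells differed between these arrays too. In nephritis 4 of 6 B and plasma cell, 3 of 6 T cell, 2 of 9 fibroblast and pericyte and 1 of 8 endothelial markers were higher. One fibroblast and pericyte marker was lower, and 0 of 7 neutrophil markers passed (1 at an unadjusted p under 0.05 in limma). Of all genes, 12.1% were called and 25.3% had an unadjusted p under 0.05. The endothelial count was near the first share and the neutrophil count below the second. The mean level of the B and plasma cell markers ran from 5.94 to 7.61 in prenephritic and from 7.30 to 8.46 in nephritic arrays, and that of the T cell markers from 5.27 to 5.81 and from 5.65 to 6.35. Ms4a1, Pax5, Cd3g and Cd8a were below the lower quartile on their mean, and the part of such cells in the Cox6a2 difference was not tested. Cox6a1, the widely expressed form of the same subunit, stayed near 13.3: 13.31 ± 0.11 (SD, n = 6), 13.31 ± 0.11 (SD, n = 7) and 13.45 ± 0.08 (SD, n = 4) in prenephritic, nephritic and remission arrays.

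**Figure D1:**
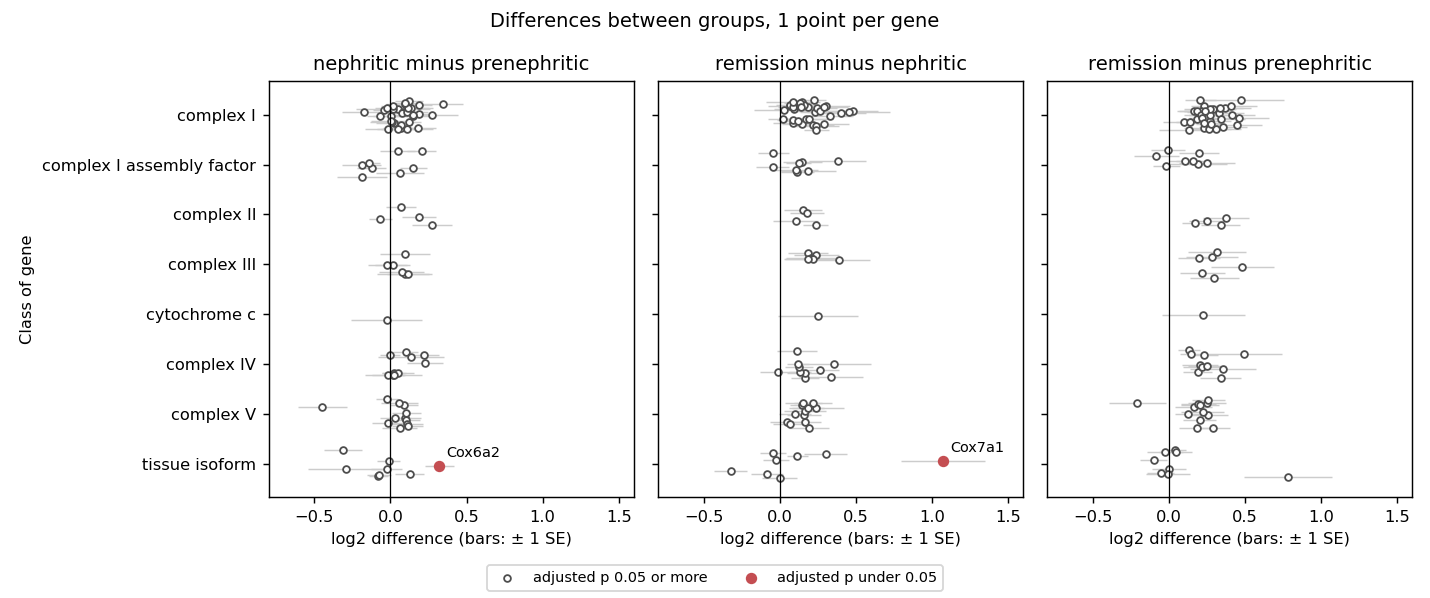
Each point is 1 of the 81 genes, placed by class (vertical) and by its log2 difference between groups (horizontal), with a bar of ± 1 SE; filled points passed an adjusted p of 0.05. Only Cox6a2 in nephritis against prenephritis and Cox7a1 in remission against nephritis are filled, and in the remission panels nearly all subunits of complexes I to V lie to the right of 0.

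Remission levels lay above nephritic levels for most of the genes, by small amounts. The median difference was 0.17 over the 81 genes against -0.03 over all genes, and 73 of the 81 were above 0. Among the 64 subunits of the 5 complexes 63 were above 0, and Cox5a, at -0.01 ± 0.11, was the exception. Single genes rarely passed: 1 was higher and 0 were lower, where 13.3% of all genes were called in either direction, and 11 of 81 had an unadjusted p under 0.05, against 29.4% of all genes. The median was 0.18 over 32 subunits of complex I, 0.17 over 4 of complex II, 0.22 over 6 of complex III, 0.15 over 10 of complex IV and 0.16 over 12 of complex V, against 0.12 over the 8 assembly factors and -0.01 over the 8 tissue isoforms. The tubule score was 1.06 higher in the same arrays, with 5 of 22 distal and 1 of 24 proximal tubule markers higher past the threshold. Of other cells, 4 of 6 T cell, 2 of 6 B and plasma cell, 2 of 9 fibroblast and pericyte and 1 of 8 endothelial markers were lower, 1 fibroblast and pericyte marker was higher, and their part in these differences was not tested. With that score as a covariate in the fit, the median over the 81 genes was -0.01, 35 of the 81 lay above 0 and 0 passed in either direction, where 8.58% of all genes did. Without the 3 arrays whose tubule scores lay farthest out (nephritic 3, remission 2 and prenephritic 3) the median was 0.07 and 0 genes passed. Array by array, the mean of the 81 genes after centring was 0.19, 0.37, 0.13 and -0.09 in remission replicates 1 to 4, and from -0.18 to 0.08 (median -0.02) in nephritic arrays. The fourth remission array thus lay inside the nephritic range and the other remission arrays lay above it; without it, 7 of 81 genes passed as higher and 0 as lower, where 18.5% of all genes were called in either direction.

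Cox7a1 was the gene that rose in remission. It encodes the heart and muscle isoform of complex IV subunit 7A, a small subunit that has a widely expressed counterpart in Cox7a2. Its log2 values were 8.50, 8.85, 8.24 and 7.60 in remission, ran from 6.64 to 7.87 (median 7.11) in nephritic arrays, and ran from 6.70 to 8.24 (median 7.57) in prenephritic arrays. The lowest remission array lay inside the nephritic range, and the other 3 lay above it. Remission minus nephritic was 1.07 ± 0.28 (SE), or 2.10-fold (95% confidence interval 0.48 to 1.66 on the log2 scale, adjusted p = 0.018). Remission minus prenephritic was 0.78 ± 0.29 (adjusted p = 0.22), and nephritic minus prenephritic was -0.29 ± 0.25 (adjusted p = 0.52). The call in remission was lost without remission replicate 1 (1.01, adjusted p = 0.067), without remission replicate 2 (0.89, adjusted p = 0.089), without the 3 extreme arrays (0.79, adjusted p = 0.080) and with the tubule score as a covariate, where the difference was 0.50 ± 0.18 (adjusted p = 0.11). It held in 23 of 27 alternatives, with adjusted p between 0.0035 and 0.11 over all of them. Cox7a2 was at 13.17, 13.33, 13.09 and 12.93 in remission and between 12.56 and 13.04 (median 12.94) in nephritic arrays, a difference of 0.26 ± 0.12 that did not pass (adjusted p = 0.16).

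The promoters of this pair are shown because they belong to isoforms of 1 subunit of which 1 passed the test, and because their CpG content differs: the 250 bases before the start held 4 CpG dinucleotides for Cox7a1 and 14 for Cox7a2, where the median over 12585 genes of the array was 13. The letters are the 120 bases before each annotated start in RefSeq's GRCm38.p6, written 5′ to 3′ on the gene's strand. The Cox7a1 stretch is chr7:30184051-30184170, plus strand, and the Cox7a2 stretch is chr9:79759854-79759973, minus strand. Both are without capitals because none of the motifs described further on was found in them.
Cox7a1: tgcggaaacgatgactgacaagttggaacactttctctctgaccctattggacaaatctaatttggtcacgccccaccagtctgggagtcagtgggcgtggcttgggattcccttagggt
Cox7a2: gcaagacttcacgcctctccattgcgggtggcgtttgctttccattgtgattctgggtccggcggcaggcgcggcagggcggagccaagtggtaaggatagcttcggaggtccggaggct

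**Figure D2:**
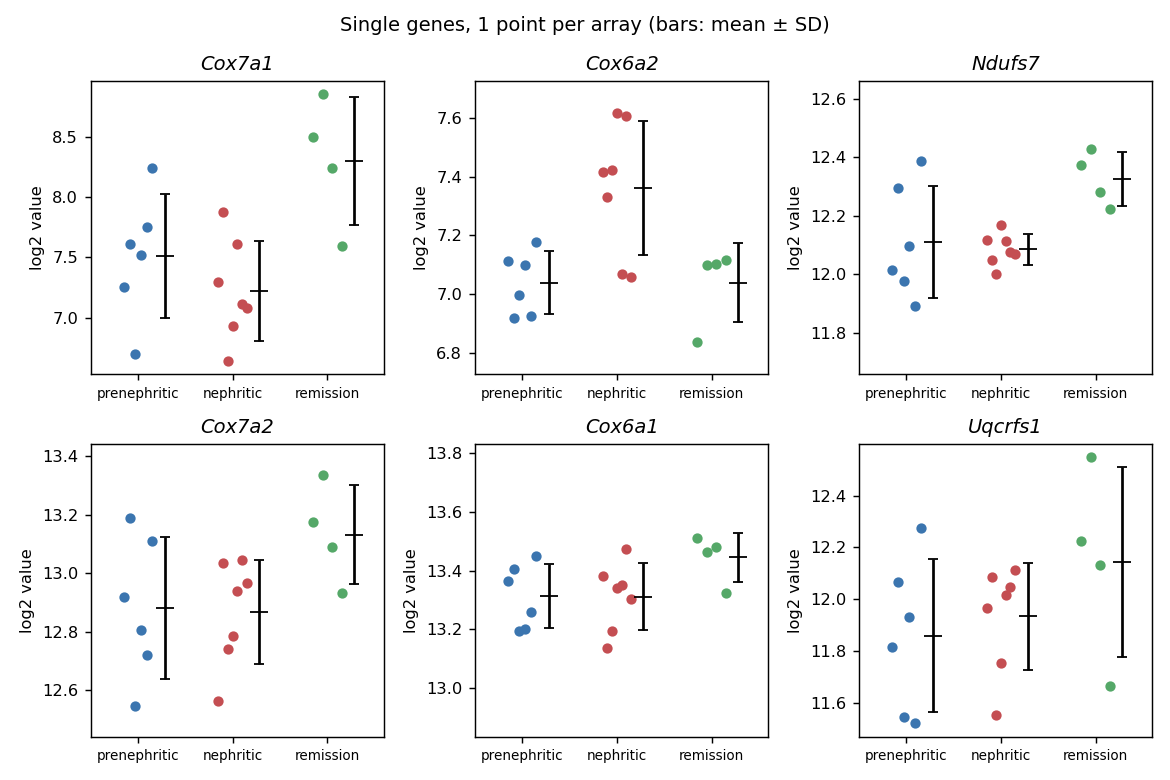
Log2 values of 6 genes (vertical axis, own scale in each panel) by group, 1 point per array, with the group mean ± SD as a black bar (n = 6, 7 and 4). Cox7a1 is highest in remission (mean 8.30) and Cox6a2 in nephritis (7.36), with overlap between groups, and Ndufs7 is the gene whose remission and nephritic arrays do not overlap.

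Remission and prenephritic arrays did not differ past the threshold for any of the 81 genes (limma, 0 higher and 0 lower; 23 of 81 at an unadjusted p under 0.05, against 18.7% of all genes), where 0.00634% of all genes, or 1 gene, were called. The median was 0.22 over the 81 genes against -0.05 over all genes, with 73 of the 81 above 0, and the tubule score was 0.88 higher. With the tubule score as a covariate the median was 0.09 and 72 of the 81 lay above 0, where 7388 of 15780 genes did. The groups overlapped for all 81 genes, while 2.32% of all genes had groups that did not. The intervals are wide: 42 of the 81 lay within ±0.5 and 78 within ±1. The 3 comparisons share arrays, each group serving in a pair of them, so their differences are not separate evidence.

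Complex I, the NADH dehydrogenase that opens the chain, gave 0 called genes of 32 in each of the 3 comparisons. The shares of all genes called were 12.1% in nephritic minus prenephritic, 13.3% in remission minus nephritic and 0.00634% in remission minus prenephritic. All 32 lay above 0 in remission minus nephritic, where 6981 of 15780 genes did. With the tubule score as a covariate 14 of the 32 did, with a median of -0.0032, where 8504 of 15780 genes did. The 32 genes were measured on the same arrays and are not separate evidence. Ndufs7, an iron-sulfur subunit of the arm that hands electrons to ubiquinone, was at 12.37, 12.43, 12.28 and 12.22 in remission and between 12.001 and 12.17 (median 12.08) in nephritic arrays. It was the only 1 of the 81 genes whose groups did not overlap in this comparison, where 8.65% of all genes did not. Its prenephritic values, from 11.89 to 12.39 (median 12.06), overlapped those of both other groups. The difference of 0.24 ± 0.08 did not pass (adjusted p = 0.065); it passed in 6 of 27 alternatives, and with the tubule score as a covariate it was 0.13 ± 0.08 (adjusted p = 0.41). Ndufa5, an accessory subunit of the peripheral arm, had the smallest p of the complex in this comparison: 12.23, 12.51, 12.11 and 11.79 in remission, 11.40 to 11.97 (median 11.73) in nephritic arrays, a difference of 0.48 ± 0.16 (adjusted p = 0.058). The fourth remission array again lay within the nephritic range. Ndufa11, an accessory subunit of the membrane arm, was nearest to the threshold in nephritis: 10.51 to 11.23 (median 10.96) in prenephritic and 10.90 to 11.55 (median 11.26) in nephritic arrays, a difference of 0.35 ± 0.13 (adjusted p = 0.098). Ndufs6 was nearest in remission minus prenephritic, at 0.45 ± 0.16 (adjusted p = 0.22). The complex I genes with the highest signals were Ndufa13 (mean over the 17 arrays 13.35), Ndufb10 (12.89) and Ndufv3 (12.82); probe signals of different genes are not a ranking of their RNA. The assembly factors, which build the complex and are not part of it, gave 0 calls of 8 in all 3 comparisons, beside the same shares of all genes.

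Complex II, succinate dehydrogenase, is shared with the tricarboxylic acid cycle. Sdha, its flavoprotein with the succinate site, was at 12.34, 12.57, 12.38 and 12.18 in remission, 11.9998 to 12.25 (median 12.13) in nephritic and 12.03 to 12.37 (median 12.21) in prenephritic arrays. Its remission minus nephritic difference was 0.24 ± 0.08 (adjusted p = 0.070). Sdhb, the iron-sulfur subunit, was at 11.78 ± 0.34 (SD, n = 6), 12.05 ± 0.12 (SD, n = 7) and 12.15 ± 0.23 (SD, n = 4) in prenephritic, nephritic and remission arrays, and nephritic minus prenephritic was 0.27 ± 0.13 (adjusted p = 0.20). The membrane anchors Sdhc and Sdhd differed between remission and nephritis by 0.16 ± 0.13 and 0.18 ± 0.11 (adjusted p = 0.45 and 0.30), and between remission and prenephritis by 0.34 ± 0.13 and 0.25 ± 0.11 (adjusted p = 0.22 and 0.26).

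Complex III carries electrons from ubiquinol to cytochrome c. Its largest difference between remission and nephritis was that of Uqcr10, a small subunit: 12.08, 12.42, 11.91 and 11.57 in remission against 11.24 to 12.06 (median 11.62) in nephritic arrays, 0.39 ± 0.20 (adjusted p = 0.22). Uqcrfs1, the Rieske iron-sulfur protein, was at 12.23, 12.55, 12.13 and 11.66 in remission, 11.55 to 12.11 (median 12.02) in nephritic and 11.52 to 12.28 (median 11.87) in prenephritic arrays, and remission minus nephritic was 0.21 ± 0.17 (adjusted p = 0.44). Uqcrh and Uqcrc2, the other complex III genes with high signals, gave 0.22 ± 0.18 and 0.24 ± 0.14 (adjusted p = 0.47 and 0.29). In nephritis Uqcrq came first, at 0.11 ± 0.14 (adjusted p = 0.68). Cycs, the mobile carrier between complexes III and IV, had a dim probe set with prenephritic values from 4.55 to 5.63 (median 4.81), nephritic values from 4.43 to 5.73 (median 4.82) and remission values of 5.26, 5.58, 5.31 and 4.58. Its mean was under the lower quartile over the table, and the mouse genome holds processed copies of Cycs. The interval of its remission minus nephritic difference ran from -0.31 to 0.81.

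Complex IV, cytochrome c oxidase, reduces oxygen. Its core subunits are encoded in mitochondrial DNA, and the genes here are nuclear. Cox5a had the smallest p in nephritis within the complex: 12.14 to 12.69 (median 12.44) in prenephritic and 12.42 to 12.83 (median 12.69) in nephritic arrays, 0.22 ± 0.10 (adjusted p = 0.19). Cox5b, which joins Cox5a on the matrix side, differed by 0.05 ± 0.10 (adjusted p = 0.83) between the same groups. Cox8a, a small membrane subunit, was at 11.36 ± 0.23 (SD, n = 4) in remission against 11.03 ± 0.25 (SD, n = 6) in prenephritic arrays, 0.34 ± 0.14 (adjusted p = 0.23). Ndufa4, first described in complex I and now counted in complex IV, varied from 11.25 to 12.81 over the 17 arrays, and its remission minus nephritic difference was 0.36 ± 0.24 (adjusted p = 0.36). Cox7a2l, which joins complexes III and IV into supercomplexes, had an SD of 0.12 over the 17 arrays and gave 0.12 ± 0.07 (adjusted p = 0.29).

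The remaining tissue isoforms gave no calls in the 3 comparisons, where 12.1%, 13.3% and 0.00634% of all genes were called. Their values stand beside those of the widely expressed form. Cox4i1 was at 12.42 ± 0.20, 12.45 ± 0.09 and 12.61 ± 0.10 in prenephritic, nephritic and remission arrays, and Cox4i2, the lung isoform, at 5.66 ± 0.14, 5.65 ± 0.10 and 5.60 ± 0.17 (SD, n = 6, 7 and 4). Cox6b1 was at 12.97 ± 0.20, 13.07 ± 0.09 and 13.20 ± 0.13, while Cox6b2, the testis isoform, was at 9.73 ± 0.17, 9.42 ± 0.26 and 9.72 ± 0.28, with -0.31 ± 0.13 in nephritic minus prenephritic (adjusted p = 0.13) and 0.30 ± 0.14 in remission minus nephritic (adjusted p = 0.17). Cox8b and Cox8c, of muscle and testis, differed by at most 0.13 in size in all 3 comparisons. Cox7b2, another testis isoform, had a mean below the lower quartile, with values from 2.87 to 3.21. Ndufa4l2, a hypoxia-inducible paralogue of Ndufa4, was at 6.34 ± 0.11, 6.31 ± 0.15 and 6.31 ± 0.32, with remission replicate 4 at 6.77 and the other remission arrays at 6.10, 6.11 and 6.27. Per gene, the tests of these isoforms were those of the limma fit, and the difference between isoforms of a pair was not tested.

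Complex V makes ATP. Its beta subunit Atp5b, which carries the catalytic sites, was at 12.98, 13.16, 13.05 and 12.71 in remission, 12.58 to 13.01 (median 12.85) in nephritic and 12.498 to 13.03 (median 12.66) in prenephritic arrays, and remission minus nephritic was 0.16 ± 0.12 (adjusted p = 0.43). Of the genes for the c subunit, whose copies form the membrane rotor and whose mature proteins are identical, Atp5g1 and Atp5g3 were measured. Atp5g1 ran from 5.46 to 6.23 (median 5.81) in prenephritic and from 4.94 to 5.66 (median 5.32) in nephritic arrays, and had the lowest difference of the 81 genes, -0.45 ± 0.16 (adjusted p = 0.082). Atp5g3 was at 13.09 ± 0.20 (SD, n = 6) and 13.18 ± 0.15 (SD, n = 7), a difference of 0.09 ± 0.09 (adjusted p = 0.61). Atp5a1, the alpha subunit, and Atp5o, of the stalk that holds the catalytic head, had the smallest p of complex V in the other comparisons: 0.15 ± 0.08 for remission minus nephritic (adjusted p = 0.25) and 0.29 ± 0.11 for remission minus prenephritic (adjusted p = 0.22). The complex V genes with the highest signals were Atp5g3 (mean over the 17 arrays 13.19), Atp5j (13.12) and Atp5j2 (12.99).

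**Figure D3:**
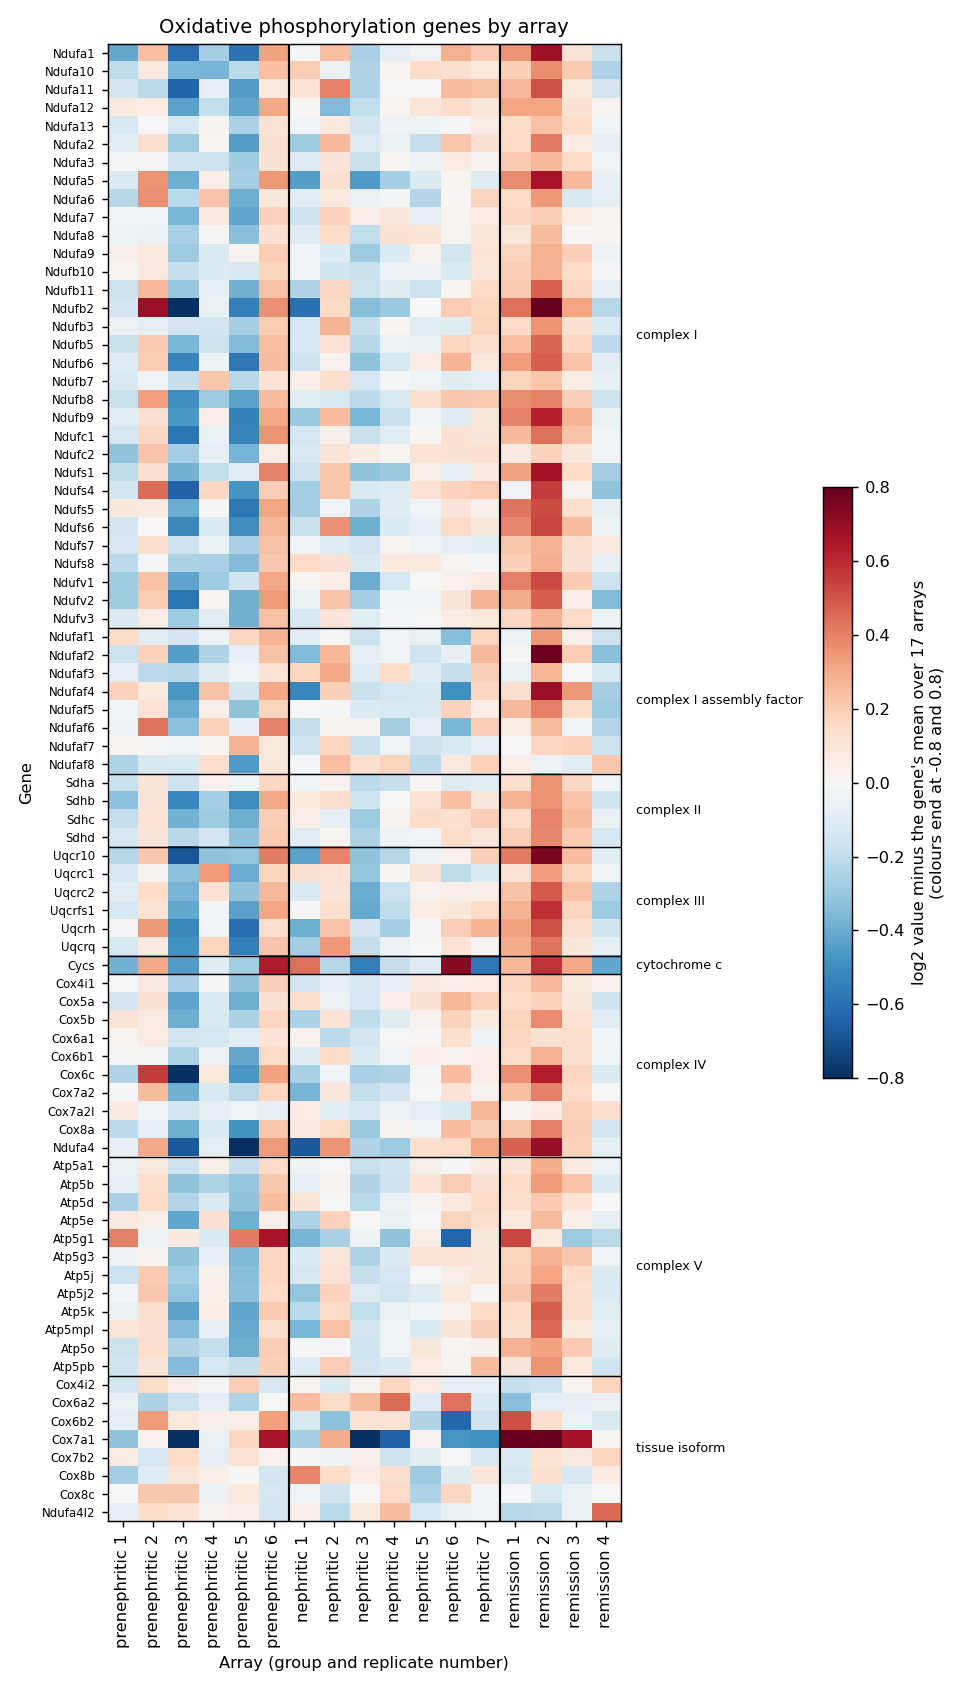
Rows are the 81 genes by class and columns the 17 arrays by group; colour gives the log2 value minus the gene's mean over all arrays, red above and blue below, with the scale ending at -0.8 and 0.8. Whole columns share a colour, for example prenephritic 3 (mean of the 81 genes -0.33) in blue and remission 2 (0.37) in red, and among the tissue isoforms at the bottom Cox7a1 shares these colours (6.70 and 8.85).

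Arrays of the same group differed in the mean of these genes. The mean of the 81 centred genes was -0.10, 0.12, -0.33, -0.05, -0.28 and 0.21 in prenephritic replicates 1 to 6. Prenephritic replicates 3 and 5 were lowest of all 17 arrays, and replicate 6 lay above every nephritic array. Ndufb2, a small membrane arm subunit, varied most after Cox7a1: its values ran from 9.05 to 10.94, with an SD of 0.48 over the 17 arrays against 0.62 for Cox7a1. Among genes with a mean at or above the lower quartile, Ndufa4 (0.43), Uqcr10 (0.38) and Cox6c (0.37) followed. Among the same genes, Cox6a1, Cox7a2l, Cox4i2, Ndufa13 and Atp5a1 varied least (0.12 to 0.13).

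The tubule score moved with the subunits in a fit with 1 slope for all groups. Fitted by group, the median slope over the 81 genes was 0.33 in prenephritic, 0.08 in nephritic and 0.30 in remission arrays. In a fit with a mean per group and the score as a covariate, 45 of the 81 genes had a positive slope and 0 a negative slope at an adjusted p under 0.05, where 10.7% of all genes had a positive one. The median slope was 0.17 log2 units per unit of score, against -0.06 over all genes. Slopes passed for 20 of 32 subunits of complex I, 4 of 4 of complex II, 5 of 6 of complex III, 5 of 10 of complex IV, 8 of 12 of complex V and Cycs. They passed for 1 of 8 assembly factors (Ndufaf5, 0.18 ± 0.06, adjusted p = 0.047) and 1 of 8 tissue isoforms (Cox7a1). Cox7a1 had the steepest slope, 0.55 ± 0.09 (adjusted p = 0.00041), ahead of Cycs at 0.43 ± 0.11 (adjusted p = 0.016) and Ndufb2 at 0.40 ± 0.13 (adjusted p = 0.036). The smallest p among the subunits of the complexes belonged to Uqcrfs1 (0.32 ± 0.06, adjusted p = 0.00069), Uqcrc2 (0.28 ± 0.05, adjusted p = 0.00080), the flavin subunit Ndufv1 (0.28 ± 0.06, adjusted p = 0.0017) and Cox8a (0.23 ± 0.05, adjusted p = 0.0048). Cox7a2l had a slope of 0.01 ± 0.04 (adjusted p = 0.86), and 7 of the 8 tissue isoforms had slopes below 0 that did not pass. Slopes below 0 were common over the table, at 10969 of 15780 genes.

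The count of slopes depended on single arrays. It was 26 without prenephritic replicate 3, 25 without prenephritic replicate 6 and 24 without remission replicate 4, and between 32 and 51 without any other array. Over all genes, 8.92%, 9.04% and 8.59% had a positive slope without those arrays in turn, and 9.13% to 10.8% without any other. With array medians subtracted the count was 26, where 9.56% of all genes had a positive slope. In that setting 4 isoforms (Cox4i2, Cox7b2, Cox8c and Ndufa4l2) had a negative slope. Without the 3 extreme arrays, a setting chosen after seeing the data, it was 5 of 81 (Cox7a1, Ndufs1, Sdhb, Uqcrc2 and Uqcrfs1), a share near the 6.38% of all genes with a positive slope there, with a median slope of 0.22 over the 81 genes. Fitted separately in each group, also a setting chosen after seeing the data, the median slope was 0.33 in prenephritic, 0.08 in nephritic and 0.30 in remission arrays, against -0.06, -0.04 and -0.06 over all genes. Positive calls numbered 37, 1 and 7 of 81, where 6.65%, 4.77% and 4.21% of all genes had one, and there was 1 negative call (Ndufa4l2 in remission). The slopes did not differ between groups past the threshold for any of the 15780 genes (limma, 0 called); at an unadjusted p under 0.05, 34 of the 81 differed between nephritic and prenephritic slopes, 13 between remission and nephritic slopes and 1 between remission and prenephritic slopes, where 5.27%, 5.65% and 1.63% of all genes did.

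**Figure D4:**
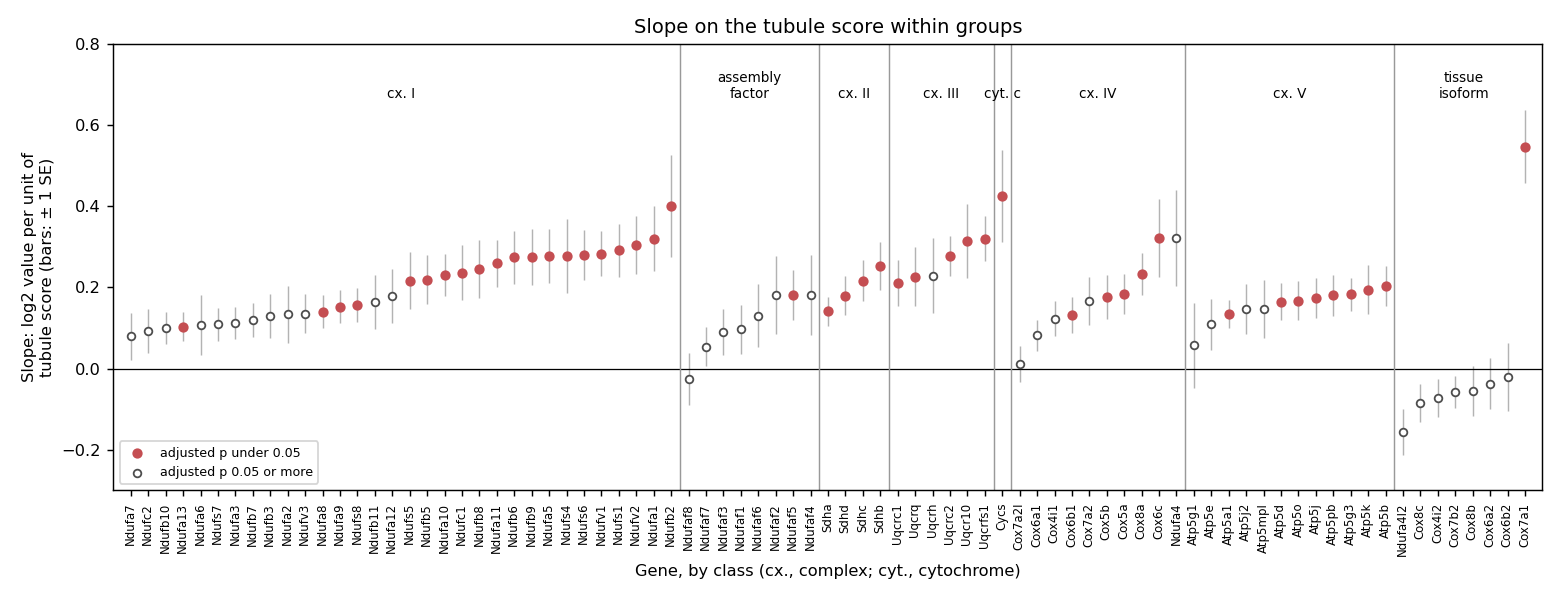
Slope of each gene on the tubule score within groups (vertical axis, log2 units per unit of score, bars ± 1 SE), ordered within class; filled points passed an adjusted p of 0.05. All 64 subunits of the complexes lie above 0 and 42 of them are filled, whereas 7 of 8 tissue isoforms lie below 0 and Cox7a1 lies highest of all.

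**Figure D5:**
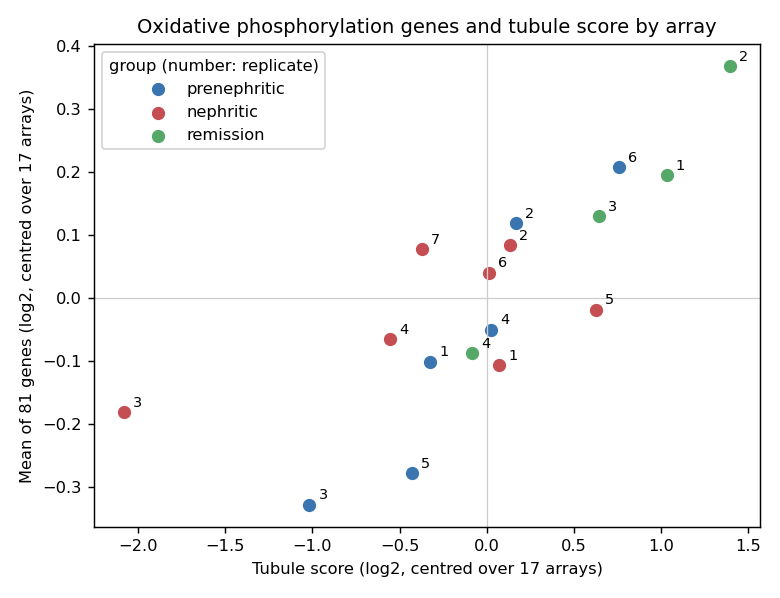
Mean of the 81 genes (vertical) against the tubule score (horizontal), both log2 values centred over the 17 arrays, 1 point per array, coloured by group and numbered by replicate. Remission replicates 1 to 3 lie at the upper right with scores from 0.65 to 1.39, and nephritic replicate 3 lies farthest left at -2.08.

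In the fit with the tubule score as a covariate, 6 genes passed in nephritis and 0 in remission minus nephritic. That fit uses 1 slope per gene for all groups. Slopes fitted by group had a median over the 81 genes of 0.33 in prenephritic and 0.08 in nephritic arrays. With the score as a covariate, 6 of the 81 genes were higher and 0 lower in nephritic than in prenephritic arrays, where 18.1% of all genes were called in either direction. They were Ndufa11 (0.39 ± 0.09, adjusted p = 0.0062), Sdhb (0.32 ± 0.09, adjusted p = 0.022), Cox8a (0.27 ± 0.08, adjusted p = 0.028), Cox5a (0.25 ± 0.07, adjusted p = 0.029), Ndufs8, an iron-sulfur subunit of complex I (0.22 ± 0.07, adjusted p = 0.031), and Cox6a2 (0.32 ± 0.10, adjusted p = 0.033). The median over the 81 genes was 0.09 and 65 of them lay above 0.

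The promoters of Uqcrfs1, Ndufv1 and Cox8a, of Cycs and of the flat Cox7a2l are shown for the letters they share or lack; Uqcrc2 had no window in the RefSeq table used. Of the 81 genes, 66 had a promoter window in the RefSeq table, and motifs were searched on both strands of the 250 bases before the start. The core of the site for NRF1, a transcription factor known for driving respiratory genes, was searched as CATGCGC and stood in 10 of 66 windows (15.2%), against 4.85% of the 12585 genes of the array with a window. The ETS core CGGAAG, read by GABP, stood in 28.8% against 20.4%, the YY1 site AANATGGC in 7.58% against 3.89%, the ERR half-site AAGGTCA in 4.55% against 3.26%, and TATAAA in 7.58% against 8.91%. The motifs were counted separately, and none is contained in another. The NRF1 core stood in the windows of Atp5k, Cox5b, Cox6a1, Cycs, Ndufa11, Ndufa6, Ndufa8, Ndufaf4, Ndufb6 and Sdhb. In the lines that follow, capitals mark the NRF1 core; a stretch without capitals holds none of the motifs in these 120 bases, which says nothing of the factors themselves.
Cycs: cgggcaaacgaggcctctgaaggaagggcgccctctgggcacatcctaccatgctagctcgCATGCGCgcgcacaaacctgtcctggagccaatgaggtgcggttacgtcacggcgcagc
Uqcrfs1: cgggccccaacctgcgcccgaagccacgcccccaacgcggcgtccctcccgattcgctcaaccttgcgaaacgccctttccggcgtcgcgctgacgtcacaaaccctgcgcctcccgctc
Ndufv1: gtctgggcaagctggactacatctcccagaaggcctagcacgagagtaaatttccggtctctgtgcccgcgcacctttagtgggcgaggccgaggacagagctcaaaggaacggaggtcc
Cox8a: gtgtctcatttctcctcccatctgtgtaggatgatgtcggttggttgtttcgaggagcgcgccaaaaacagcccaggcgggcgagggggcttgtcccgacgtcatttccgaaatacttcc
Cox7a2l: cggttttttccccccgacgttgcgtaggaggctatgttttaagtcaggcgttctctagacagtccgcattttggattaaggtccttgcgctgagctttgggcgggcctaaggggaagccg
In GRCm38.p6 these are chr6:50566570-50566689, minus strand for Cycs, chr13:30545317-30545436, minus strand for Uqcrfs1, chr19:4012756-4012875, minus strand for Ndufv1, chr19:7217617-7217736, minus strand for Cox8a and chr17:83514334-83514453, minus strand for Cox7a2l. The 250 bases held a median of 14.5 CpG dinucleotides over the 66 genes, against 13 over all genes with a window and 6 over the 4 tissue isoforms with one; Cycs and Uqcrfs1 had 23 each. A motif match describes letters and is not a measured binding site.

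Genes around the chain, taken from lists of related processes, moved with the tubule score to different degrees. Over all genes, 10.7% had a positive slope and 1400 of 15780 a negative one. The shares of all genes called were 12.1% in nephritic minus prenephritic, 13.3% in remission minus nephritic and 0.00634% in remission minus prenephritic. At an unadjusted limma p under 0.05 the first 2 shares were 25.3% and 29.4%. Of 17 measured genes of the tricarboxylic acid cycle, 15 had a positive slope and 0 a negative one, led by the pyruvate carboxylase gene Pcx (0.98 ± 0.09, adjusted p = 9.1e-07), and 0 of 17 passed in the comparison of remission with nephritis or of nephritis with prenephritis (5 and 0 at an unadjusted p under 0.05 in limma). Of 17 regulators of mitochondrial biogenesis, 3 had positive slopes (Ppargc1a, 1.09 ± 0.10; Esrrg, 0.96 ± 0.10; Ppara, 0.73 ± 0.10) and 4 negative ones (Nrf1, -0.17 ± 0.03; Gabpb1, -0.18 ± 0.04; Gabpa, -0.13 ± 0.04; Polg, -0.11 ± 0.04), with adjusted p of at most 0.043. Ppargc1a, a coactivator that raises mitochondrial content, was higher in remission than in nephritis by 1.64 ± 0.49 (adjusted p = 0.037), a call lost with the tubule score as a covariate (0.49 ± 0.21, adjusted p = 0.16), and Twnk, the mitochondrial DNA helicase, was lower in nephritis by -0.24 ± 0.07 (adjusted p = 0.026). Of 10 carriers and antioxidants 4 had positive slopes, of 8 hypoxia genes 3 and of 7 glycolysis genes 2. Among the comparisons of groups these 3 lists gave 1 call, Pkm of glycolysis, which was higher in nephritis by 0.37 ± 0.11 (adjusted p = 0.042).

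Assembly factors outside the 81 genes, with the complex III subunit Cyc1 among them, gave 4 higher and 1 lower of 29 in nephritis, and 2 higher and 3 lower of 29 in remission minus nephritic, where 12.1% and 13.3% of all genes were called. With the tubule score as a covariate, 1 gene of the list (Cox18, -0.53 ± 0.06, adjusted p = 0.00011) passed in remission minus nephritic, where 8.58% of all genes did. The calls there of Sdhaf2, Foxred1, Cox20 and Uqcc1 were lost (adjusted p from 0.070 to 0.18). In nephritic minus prenephritic with the covariate, 5 of 29 were higher and 1 lower, where 18.1% of all genes were called. Cox18, which inserts a core complex IV subunit into the membrane, rose by 0.35 ± 0.06 in nephritis (adjusted p = 0.00098) and was lower in remission than in nephritis by -0.42 ± 0.07 (adjusted p = 0.00073). Sdhaf2, which loads flavin onto Sdha, followed with 0.26 ± 0.07 and -0.28 ± 0.08 (adjusted p = 0.020 and 0.023), and Foxred1, a complex I assembly factor, with 0.21 ± 0.07 and -0.24 ± 0.07 (adjusted p = 0.043 and 0.041). Cox20 was lower in nephritis, -0.25 ± 0.07 (adjusted p = 0.028), and higher in remission than in nephritis, 0.27 ± 0.08 (adjusted p = 0.038). Uqcc2, of complex III, was the other gene higher in nephritis (0.35 ± 0.11, adjusted p = 0.041), and Uqcc1 was the other gene higher in remission than in nephritis (0.22 ± 0.06, adjusted p = 0.017). The median of the 29 genes was -0.0024 for nephritic minus prenephritic and 0.07 for remission minus nephritic, against -0.02 and -0.03 over all genes.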

How the data were processed

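RNA of sorted F4/80hi kidney macrophages was measured on Affymetrix arrays, with an array for each sample. The values are log2 expression as deposited by the authors, from RMA of unnamed version per the submitters' processing notes. Probe definition and filtering: not given in the sources used here. RMA gives arrays a shared distribution, which hides a change of total RNA in a cell and compresses differences of dim genes. Values ran from 1.76 to 15.00 and array medians from 7.49 to 7.68. Of 16539 probe sets, 64 were controls and 695 had no symbol, which left 15780 genes with 1 probe set each.

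Tests used limma 3.58.1 (R 4.3.3), with 1 mean per group over 17 arrays (14 residual degrees of freedom), two-sided, and Benjamini-Hochberg adjustment over 15780 genes at 0.05. The code was tested on simulated data. Tubule slopes came from the same fit with the tubule score as a covariate. The number of arrays limits precision. Promoter letters came from RefSeq's GRCm38.p6 by Entrez identifier.

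The genes, lists and rules were chosen with earlier results of these data known. Named are all called genes, the smallest p and 3 highest levels per complex, Cycs, Sdha to Sdhd and isoform families. Also named are the 5 largest and 5 smallest SDs, and up to 4 genes per related list and comparison. Genes printed for slopes or promoters were added after their values were seen. Some others, such as Atp5b, were named outside these rules. Same-numbered arrays of different groups deviated together in some pairs and not in others (14 pairs, correlations of deviations from -0.26 to 0.80, 8 above 0.1). The labels do not give the replicate numbers as pairs, so they were not used as pairs, and a shared batch was not tested. Alternatives changed the filter, scaling, variance prior, array weights, arrays fitted and covariates.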

Additional observations from a re-analysis of the deposited data

Results flagged for a closer look

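In 249 groups of 4 to 7 arrays (81 genes and 2 scores by 3 groups), 3 had 1 array far from the others, where chance gives about 1 in 20. Cox6a2 was at 6.84 in remission replicate 1, below the 7.10 to 7.12 of the other remission arrays. Ndufaf7, a complex I assembly factor, was at 9.50 in prenephritic replicate 5, above the 9.20 to 9.31 of the others, and at 9.40 in nephritic replicate 2, above 9.04 to 9.19. No comparison of Ndufaf7 passed (limma, -0.14 ± 0.08 for nephritic minus prenephritic, adjusted p = 0.26).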

How the results depend on the processing

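The median difference of the 81 genes kept its direction in remission minus prenephritic under all 27 alternatives. In remission minus nephritic it kept it in all but the fit with the tubule score as covariate (-0.0051). In nephritic minus prenephritic it kept it in all but the fit without nephritic replicate 6 and prenephritic replicate 5 (-0.01). There the median of 0.06 fell to 0.0085 with quantile normalization repeated, 0.0033 without prenephritic replicate 3 and 0.015 without prenephritic replicate 5. It rose to 0.12 without prenephritic replicate 6.

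The number of genes higher in nephritic than in prenephritic arrays, 1 in the reported fit, was 0 with quantile normalization repeated, with array medians subtracted, with a trended robust variance prior, with array weights, with only the 2 groups compared, without the 3 arrays with the most extreme tubule scores and without nephritic replicate 6 and prenephritic replicate 5. Over all genes, 7.83% to 12.5% were called in these settings. The number was 6 with the tubule covariate, where 18.1% of all genes were called in either direction. Leaving out 1 array gave 0 to 3, where 9.29% to 12.9% of all genes were called.

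The number higher in remission than in nephritic arrays, 1 in the reported fit, was 2 with dim genes left out (a filter that also gave 1 lower), 3 with quantile normalization repeated, 3 with array medians subtracted, 6 with array weights (and 1 lower), 2 with only the 2 groups compared, and 0 with the covariate or without the 3 extreme arrays. The shares of all genes called there were, in that order, 19%, 12.4%, 11.2%, 23%, 12.6%, 8.58% and 5.8%. Leaving out 1 array gave 0 to 7 higher and 0 to 1 lower, where 6.47% to 18.5% of all genes were called. With the replicate block, which rests on numbers that the labels do not give as pairs, 9 were higher and 1 lower (Cox6a2), where 18.3% of all genes were called. The block left 1 higher gene in nephritic minus prenephritic and 0 in remission minus prenephritic, where 10.8% and 3.03% of all genes were called.

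The 45 positive tubule slopes became 26 with array medians subtracted (with 4 negative ones), 34 with the proximal list alone, 43 with the distal list alone (1 negative, Ndufa4l2), 58 with no group term and 5 without the 3 extreme arrays; leaving out 1 array gave 24 to 51 positive and 0 to 1 negative. Over all genes, 9.56%, 9.46%, 10.7%, 12.2% and 6.38% had a positive slope in those settings, in that order. With 1 array left out, 8.59% to 10.8% did. The causes of these changes were not tested. Background correction, probe filters and slide could not be varied, as scanner files were not used here. Cycs and Cox7b2 have dim probe sets, so their differences may be compressed, although Cycs varied with an SD of 0.44 over the 17 arrays.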
